A study of Homo sapiens with 12 samples.

Results

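The comparison set 2 natural ErbB ligands against each other in MCF10A-HER2-FKBP-HA cells. It holds 6 of the 12 arrays of the series, 3 labelled Heregulin and 3 labelled TGF-alpha, chosen by the treatment label alone, and 18417 genes were tested. MCF10A is a non-tumorigenic human breast epithelial line. These cells also carried a stably transfected HER2 receptor, full length and chimeric, with FKBP and HA tags, and all groups shared it. The base medium, DMEM/F12, always held insulin at 10 microgram/ml, hydrocortisone at 500 ng/ml and cholera toxin at 100 ng/ml. For routine growth it also held EGF at 20 ng/ml and 5% horse serum, which were both left out from 24 hours before ligand, and RNA was taken 48 hours after Heregulin or TGF-alpha was added. The untreated group and the AP1510 group (a synthetic ligand that pairs FKBP-tagged receptors), with 3 arrays each, shared the estimate of spread, and untreated levels are given as a reference without a test. The sources used here do not state a dose for either ligand, so they were compared at 1 time and at unknown doses. A single line with an added receptor was used. Each group came from triplicate dishes, and p-values therefore reflect the spread between such dishes and their arrays only.

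TGF-alpha binds EGFR, which then pairs with itself or with HER2. Heregulin, also called neuregulin, binds HER3 (ERBB3) and HER4 (ERBB4). HER3 has little kinase activity of its own, signals mostly through HER2 as its partner, and is known for its many docking sites for PI3 kinase, while EGFR is known for strong coupling to RAS and ERK. Breast epithelial cells of this line depend on EGFR ligands for growth in culture.

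Levels are log2 intensities made by RMA, so 1 unit is a 2-fold difference, and levels of different genes are not set against each other. A difference is heregulin minus TGF-alpha with its standard error (n = 3 arrays per ligand). A gene was called when limma's two-sided adjusted p, by Benjamini-Hochberg over all 18417 genes, was under 0.05. Arrays of 1 ligand correlated at 0.990 to 0.996 across genes, and heregulin with TGF-alpha arrays at 0.972 to 0.982. The heregulin arrays were the more spread, with a median SD per gene of 0.132 against 0.0963 for TGF-alpha. Heregulin replicate 2 lay at 30.1 on the second principal component, and the other heregulin arrays at 20.0 and 17.8.

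In all, 3986 genes were called, 21.6% of those tested, with 1820 (9.88%) higher and 2166 (11.8%) lower in heregulin. The counts of each gene list below are to be read beside these shares. Differences of at least 2-fold were called for 539 genes, 222 (1.21%) higher and 317 (1.72%) lower. At least 4-fold apart were 36 higher and 24 lower genes, whereas 2452 called genes were under 1.5-fold apart. The median difference over all genes was 0.03. The 15 genes furthest above TGF-alpha with heregulin included the complement genes CFB and C1S, the acute phase genes SAA1 and SAA2 and the S100 genes S100A8 and S100A9. Those furthest below included ETS transcription factors, serine and asparagine synthesis enzymes and DNA replication genes.

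**Figure D1:**
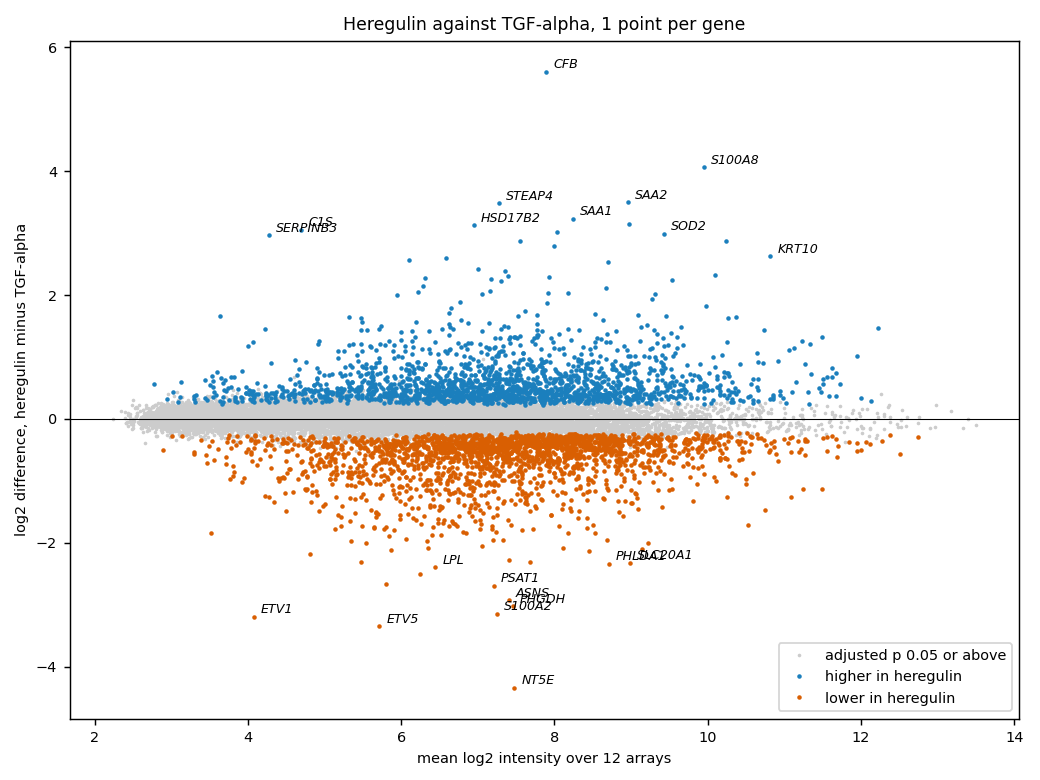
Each point is 1 of 18417 genes, with the mean log2 intensity over 12 arrays on the horizontal axis and the log2 difference, heregulin minus TGF-alpha, on the vertical axis. Blue marks 1820 genes called higher in heregulin and orange 2166 called lower. CFB stands at the top with 5.61 and NT5E at the bottom with -4.34.

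The 6 genes that mark this comparison lay apart on every array. CFB encodes complement factor B, the serine protease of the alternative pathway. It read 11.59, 11.35 and 11.33 on the heregulin arrays, 5.81, 5.78 and 5.85 on the TGF-alpha arrays and 7.46, 7.40 and 7.60 on the untreated arrays. It was 48.9-fold higher with heregulin (95% interval 41.5 to 57.6, adjusted p = 2.2e-14), and its 3 probe sets gave differences of 5.61, 5.71 and 5.77. S100A8, a subunit of the secreted calcium and zinc binding protein calprotectin, read 12.15, 11.84 and 11.97 with heregulin, 8.03, 8.07 and 7.67 with TGF-alpha and 10.43, 10.43 and 10.57 untreated. That is a 16.7-fold difference (adjusted p = 3.7e-11), with the untreated arrays between the ligands. STEAP4, a metalloreductase of the cell surface, read 8.66, 8.24 and 8.26 with heregulin, 5.03, 4.99 and 4.69 with TGF-alpha and 8.18, 8.06 and 8.36 untreated. Its 11.2-fold difference (adjusted p = 8.0e-10) lay between low TGF-alpha arrays and heregulin arrays that overlapped the untreated ones.

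NT5E, which encodes CD73, the surface enzyme that makes adenosine from AMP, read 6.22, 5.58 and 5.84 with heregulin, 10.17, 10.27 and 10.21 with TGF-alpha and 7.33, 6.98 and 7.30 untreated. Here the untreated arrays again lay between the ligands, and the difference was 20.3-fold (95% interval 16.7 to 24.7, adjusted p = 3.1e-12), lower with heregulin. ETV5, an ETS transcription factor of the PEA3 group, read 4.68, 4.68 and 4.34 with heregulin, 7.87, 7.94 and 7.93 with TGF-alpha and 5.29, 5.25 and 5.06 untreated, 10.2-fold lower with heregulin (adjusted p = 5.0e-12). PHGDH, the first enzyme of serine synthesis from glucose, read 6.32, 6.47 and 6.62 with heregulin, 9.44, 9.59 and 9.45 with TGF-alpha and 7.09, 7.06 and 7.10 untreated. It was 8.14-fold lower with heregulin (adjusted p = 3.0e-12). No heregulin array overlapped a TGF-alpha array for any of these 6 genes, as in 3918 of the 3986 called genes among the 18417 tested. The 6 genes were chosen with earlier results of these data known, so this is a description.

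**Figure D2:**
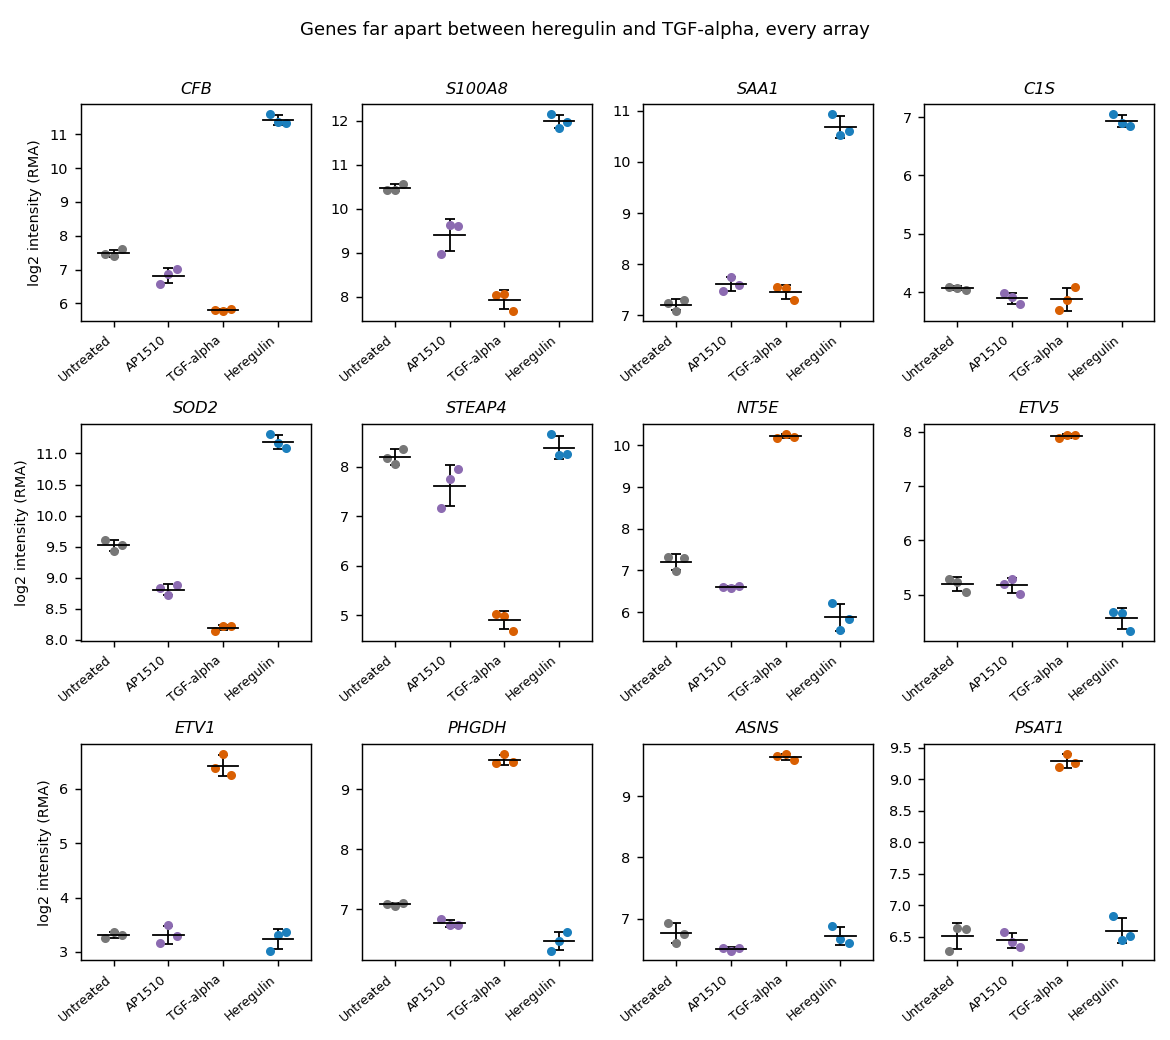
Each panel plots the log2 intensity of 1 gene on every array by group, with points for arrays, a bar for the mean and whiskers of 1 SD (n = 3); vertical scales differ between panels and do not start at 0. In every panel the 3 heregulin and the 3 TGF-alpha arrays lie apart, and STEAP4, ETV1, ASNS and PSAT1 show heregulin arrays near the untreated ones.

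The receptors themselves differed by less than 2-fold. ERBB3, the heregulin receptor, read 7.93, 7.88 and 7.92 with heregulin, 7.17, 7.18 and 6.98 with TGF-alpha and 8.04, 8.01 and 8.04 untreated. It was 1.74-fold higher with heregulin (difference 0.80 ± 0.10, adjusted p = 2.7e-05), with heregulin arrays just below the untreated ones and TGF-alpha arrays further below. ERBB2, which encodes HER2, read 10.97, 10.90 and 11.01 with heregulin, 11.46, 11.54 and 11.49 with TGF-alpha and 10.94, 10.98 and 10.93 untreated. Its difference was -0.54 ± 0.08 (adjusted p = 1.4e-04), and RNA of the chimera and of the cells' own gene cannot be told apart in these values. EGFR, the TGF-alpha receptor, read 9.40, 9.24 and 9.17 with heregulin and 9.09, 8.98 and 8.98 with TGF-alpha. These arrays did not overlap, but the difference of 0.25 ± 0.09 missed the threshold (adjusted p = 0.065), and it passed with dim genes left out (0.037), with renewed quantile normalization (0.018) and with a trended prior (0.029). ERBB4, the other heregulin receptor, read 4.17, 4.04 and 4.08 and 4.13, 4.09 and 3.96, with overlapping arrays and a difference of 0.04 ± 0.11 (95% interval -0.20 to 0.27). Its mean over the 12 arrays, 4.09, lay below the median of all probe sets, 5.37, so a difference may not show there.

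Of the 13 receptor genes and inhibitors that act at receptors, 4 were called higher and 2 lower with heregulin. ERRFI1, whose product MIG6 binds and inhibits ErbB kinases, read 10.76, 10.75 and 10.79 with heregulin, 10.28, 10.19 and 10.31 with TGF-alpha and 9.98, 9.93 and 9.95 untreated, a difference of 0.51 ± 0.09 (adjusted p = 3.9e-04). The ubiquitin ligase gene CBLB was 1.39-fold higher and SOCS5, of the suppressors of cytokine signalling, 1.28-fold higher. CBL, the better known ligase for EGFR, was 1.22-fold lower (adjusted p = 0.017). Its adjusted p was 0.067, 0.050 and 0.077 without TGF-alpha replicate 1, TGF-alpha replicate 3 and heregulin replicate 3, so this call was lost there. LRIG1, which promotes receptor turnover, and its relative LRIG3 had differences of 0.31 ± 0.14 (adjusted p = 0.13) and 0.28 ± 0.10 (adjusted p = 0.063). Both were called with array weights, and LRIG3 also in 3 other settings and without TGF-alpha replicate 3. RNF41, a ligase for HER3 also called NRDP1, gave -0.14 ± 0.09 (adjusted p = 0.36), SOCS4 0.02 ± 0.12 (adjusted p = 0.94) and the phosphatase gene PTPN1 -0.11 ± 0.09 (adjusted p = 0.43).

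Of 12 measured ligand and sheddase genes, 1 was called higher and 1 lower, no larger a share than the 21.6% called over all genes, and AREG was not measured by a probe set of its own. EREG, epiregulin, read 7.72, 7.82 and 7.79 with heregulin and 7.53, 7.37 and 7.39 with TGF-alpha, 1.27-fold higher (adjusted p = 0.0046). EPGN, epigen, read 8.02, 7.36 and 8.04 with heregulin, where replicate 2 was the lowest, and 8.57, 8.82 and 8.67 with TGF-alpha, 1.84-fold lower (adjusted p = 5.7e-04). HBEGF read 6.38, 6.78 and 6.74 with heregulin, 6.27, 5.83 and 6.10 with TGF-alpha and 7.99, 7.95 and 7.97 untreated. Both ligands thus lay far below untreated, and their difference of 0.57 ± 0.20 missed the threshold (adjusted p = 0.058), though it passed without heregulin replicate 1 (0.036), with the 6 arrays only (0.012), with dim genes left out (0.039) and with array weights (0.0043). TGFA, the gene of TGF-alpha, gave -0.01 ± 0.13 (95% interval -0.28 to 0.26) and NRG1, the gene of heregulin, -0.04 ± 0.09 (95% interval -0.23 to 0.15). The sheddases ADAM17 and ADAM10 gave 0.23 ± 0.09 (adjusted p = 0.1) and 0.26 ± 0.10 (adjusted p = 0.091). Without heregulin replicate 2, both sheddases were called, with adjusted p of 0.015 and 0.010, as was NRG2 (0.034, lower in heregulin). All 3 were also called with array weights, both sheddases after renewed quantile normalization, and ADAM10 with a trended prior. BTC, EGF, NRG2, NRG3 and NRG4 lay between -0.22 and 0.12, none called. Only 7 of the 12 genes had a mean level above the median of all probe sets, 5.37. BTC, EGF, NRG1, NRG3 and NRG4 lay below it, where a difference may not show.

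**Figure D3:**
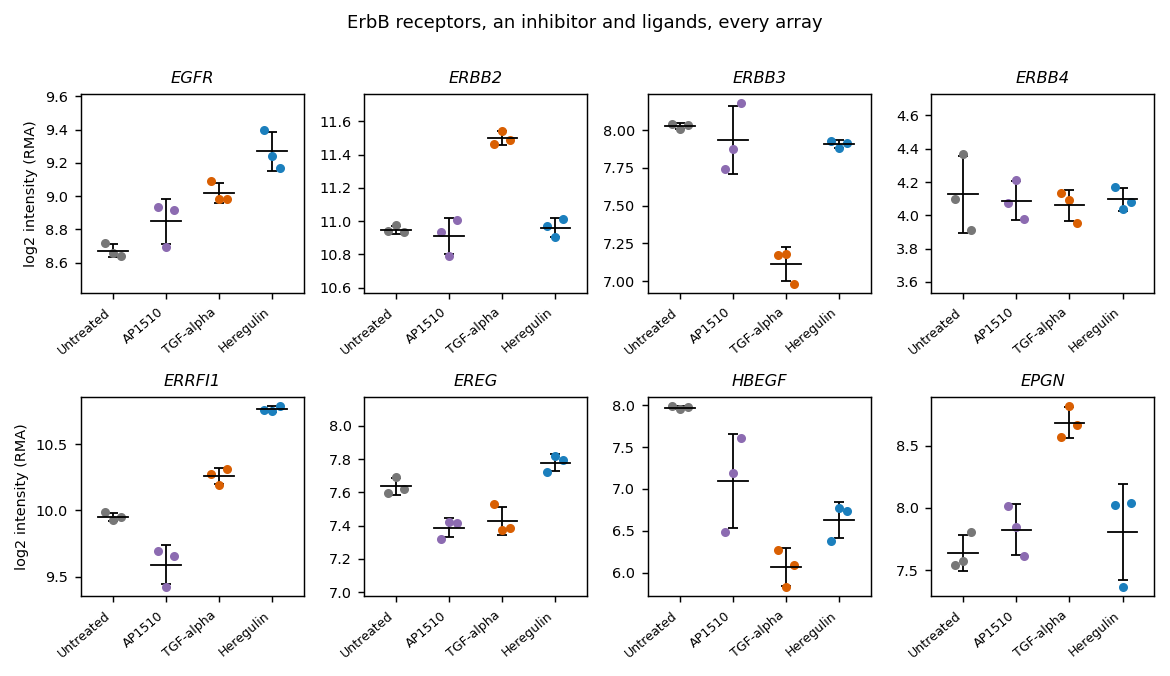
Each panel plots the log2 intensity of an ErbB receptor, inhibitor or ligand gene on every array, with points for arrays, a bar for the mean and whiskers of 1 SD (n = 3); vertical scales differ and do not start at 0. ERBB3 and ERBB2 separate the ligands in opposite directions, and EGFR lies at 9.40, 9.24 and 9.17 with heregulin against 9.09, 8.98 and 8.98 with TGF-alpha.

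ETS factors of the PEA3 group are induced by ERK, and all 3 were far lower with heregulin. ETV1 read 3.03, 3.31 and 3.37 with heregulin, 6.39, 6.64 and 6.25 with TGF-alpha and 3.26, 3.37 and 3.32 untreated, 9.14-fold lower (adjusted p = 2.9e-11). ETV4 read 4.15, 4.25 and 4.13 with heregulin, 6.21, 6.19 and 6.64 with TGF-alpha and 4.61, 4.42 and 4.32 untreated, 4.51-fold lower (adjusted p = 3.8e-09). Only the TGF-alpha arrays stood above untreated for these genes. PHLDA1, an ERK-responsive gene, read 7.33, 7.19 and 7.42 with heregulin, 9.73, 9.43 and 9.79 with TGF-alpha and 8.99, 8.98 and 8.91 untreated, 5.05-fold lower with heregulin and below untreated there. Among 22 genes of ERK feedback and output, 9 were called lower and 4 higher, with a median difference of -0.27 against 0.03 for all genes. With dim genes left out, 7 were called lower and 4 higher, and the median was -0.0042. With array weights it was -0.16. SPRED3, an inhibitor of RAS signalling, gave 0.05 ± 0.16 (adjusted p = 0.89). IER3 gave -0.05 ± 0.19 and was not called, with heregulin at -1.31 and TGF-alpha at -1.26 from untreated. Among those called higher was the phosphatase gene DUSP5, which read 7.85, 8.15 and 8.19 with heregulin and 7.42, 7.31 and 7.35 with TGF-alpha (adjusted p = 0.0078). It was named after its values were seen.

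Immediate early genes, which encode short-lived transcription factors and matrix signals, went the other way. Of 19 measured, 15 were called higher in heregulin and 0 lower, and 1 was lower without heregulin replicate 2. FOSB, an AP-1 subunit, read 9.33, 9.44 and 9.55 with heregulin, 7.54, 7.37 and 7.59 with TGF-alpha and 10.61, 10.39 and 10.33 untreated, 3.84-fold higher (adjusted p = 4.7e-09). CCN2 and CCN1, matricellular growth factor genes, were 3.20-fold and 2.51-fold higher, and the orphan nuclear receptor gene NR4A2 was 2.48-fold higher. In each of these 4 genes untreated cells were highest, heregulin lay between and TGF-alpha was lowest. FOSL1, an AP-1 subunit known as an ERK target, gave -0.23 ± 0.13 (adjusted p = 0.26), and was called lower without heregulin replicate 2 (adjusted p = 0.046). JUND gave 0.11 ± 0.10 and was not called.

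Complement proteins tag microbes and cells for clearance. Of 15 measured genes, 11 were called higher with heregulin and 1 lower. C1S and C1R encode the proteases of the first complement component, and their genes are neighbours. C1S read 7.05, 6.90 and 6.85 with heregulin, 3.69, 3.87 and 4.08 with TGF-alpha and 4.10, 4.08 and 4.03 untreated, 8.30-fold higher (adjusted p = 7.9e-12). C1R read 7.51, 7.38 and 7.0 with heregulin, 5.37, 5.16 and 5.35 with TGF-alpha and 5.48, 5.75 and 5.46 untreated, 4.02-fold higher (adjusted p = 1.2e-08). For both genes TGF-alpha and untreated arrays were near each other and heregulin arrays lay alone. C3, the central component, read 12.88, 12.75 and 12.79 with heregulin and 11.39, 11.36 and 11.29 with TGF-alpha, 2.76-fold higher (adjusted p = 1.7e-09), with untreated arrays between them at 12.43, 12.43 and 12.44. CFD, the protease that cleaves factor B, gave 0.05 ± 0.09 (95% interval -0.13 to 0.23) and the membrane regulator CD46 0.13 ± 0.11 (95% interval -0.09 to 0.36).

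Serum amyloid genes encode acute phase proteins that epithelia also make. SAA1 read 10.93, 10.53 and 10.60 with heregulin, 7.55, 7.53 and 7.31 with TGF-alpha and 7.25, 7.09 and 7.29 untreated, 9.37-fold higher (adjusted p = 1.6e-11). SAA2 was 11.3-fold higher (adjusted p = 3.0e-12), with its 2 probe sets at 3.50 and 3.25, but SAA1 and SAA2 are near copies and their shares of the signal are uncertain. LCN2, lipocalin 2, which binds bacterial iron carriers, read 8.71, 8.51 and 8.67 with heregulin, 6.91, 6.92 and 6.85 with TGF-alpha and 7.23, 7.42 and 7.33 untreated, 3.34-fold higher (adjusted p = 2.3e-09). The antiprotease genes SERPINA3 and SERPINA1 were 1.72-fold and 1.49-fold higher, with untreated arrays lowest in both. In all, 6 of 17 acute phase genes were called higher and 0 lower, the hepcidin gene HAMP at 0.11 ± 0.10 (adjusted p = 0.51). Only 6 of the 17 had a mean level above the median of all probe sets, below which a difference may not show.

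S100 proteins split by member. S100A9, the partner of S100A8 in calprotectin, read 11.14, 10.96 and 10.94 with heregulin, 7.92, 7.96 and 7.69 with TGF-alpha and 8.99, 9.02 and 8.99 untreated, 8.91-fold higher (adjusted p = 3.6e-10). S100A7, psoriasin, was 2.73-fold higher (adjusted p = 2.4e-06), with heregulin arrays spread from 6.26 to 7.09. S100A2, a calcium sensor of basal epithelium, went the other way, at 5.82, 5.93 and 5.77 with heregulin, 8.94, 8.98 and 9.03 with TGF-alpha and 6.14, 6.75 and 6.46 untreated. It was 8.84-fold lower (adjusted p = 8.3e-11). Of 18 members, 6 were called higher and 4 lower, while S100A16 and S100A13 gave -0.09 ± 0.08 and 0.11 ± 0.10.

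NF-kB genes are induced by stress and cytokine signals and include the pathway's own subunits and inhibitors. Of 21 measured, 15 were called higher with heregulin and 0 lower, with a median of 0.71 against 0.03 for all genes. NFKB2, which encodes the p100 subunit, read 9.17, 9.09 and 9.22 with heregulin, 7.05, 7.10 and 7.24 with TGF-alpha and 8.31, 8.30 and 8.30 untreated, 4.08-fold higher (adjusted p = 1.5e-10). TNFAIP3, whose product A20 edits ubiquitin to restrain NF-kB, read 7.85, 7.74 and 7.96 with heregulin, 5.15, 5.03 and 5.57 with TGF-alpha and 6.97, 6.97 and 6.82 untreated, 6.06-fold higher (adjusted p = 2.7e-09). SOD2, the mitochondrial superoxide dismutase and a known NF-kB target, read 11.31, 11.16 and 11.08 with heregulin, 8.15, 8.22 and 8.22 with TGF-alpha and 9.61, 9.42 and 9.54 untreated, 7.94-fold higher (adjusted p = 3.0e-12). In these 3 genes heregulin arrays lay above and TGF-alpha arrays below untreated. NFKBIZ, a nuclear cofactor, was 3.18-fold higher with heregulin, but there untreated cells were highest, at 8.49, 8.30 and 8.45. CD83 and LTB gave -0.07 ± 0.11 and 0.07 ± 0.11, neither called.

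Epithelial chemokine genes were called higher in 6 of 17 and lower in 0, and the 4 furthest apart were of the CXC type. CXCL1, which attracts neutrophils, read 9.43, 9.47 and 9.19 with heregulin, 6.61, 6.44 and 6.66 with TGF-alpha and 8.29, 8.54 and 8.40 untreated, 6.93-fold higher (adjusted p = 2.6e-10). CXCL2 was 2.88-fold, CXCL8, interleukin 8, 2.82-fold and CXCL10, which attracts T cells, 2.72-fold higher. CXCL5 gave 0.08 ± 0.08 and CXCL14 0.03 ± 0.14. CXCL1 and CXCL2 are close paralogs, so part of their signal may be shared. In the interleukin-1 family 2 of 16 genes were called higher, near the 9.88% called higher over all genes. These were the receptor IL1R1 by 1.78-fold and the caspase gene CASP1 by 1.65-fold, whereas IL18 and the antagonist IL1RN gave -0.10 ± 0.12 and -0.02 ± 0.10. Without heregulin replicate 2, 3 of the 16 were called. Only 7 of the 17 chemokine genes and 6 of these 16 had a mean level above the median of all probe sets. Below it a difference may not show.

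Antigen presentation genes serve the loading of peptides on MHC molecules of class I or class II. Of 13 measured, 10 were called higher with heregulin and 0 lower, with a median of 0.81, while the class I heavy chains have no probe set of their own here. TAP1, a subunit of the peptide transporter, read 8.58, 8.47 and 8.41 with heregulin, 7.44, 7.70 and 7.73 with TGF-alpha and 7.75, 7.71 and 7.66 untreated, 1.81-fold higher (adjusted p = 6.4e-06). TAPBP, tapasin, was 2.79-fold higher, with 3 probe sets at 1.41 to 1.52. ERAP1, which trims peptides, was 2.56-fold and B2M, the class I light chain, 1.99-fold higher. TAP2 was 1.42-fold and HLA-DMA, of class II, 1.24-fold higher.

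Interferon-stimulated genes were called higher in 9 of 28 and lower in 0. GBP2, a guanylate-binding protein, read 7.49, 7.22 and 7.40 with heregulin, 5.06, 4.99 and 4.79 with TGF-alpha and 8.37, 8.16 and 8.23 untreated, 5.35-fold higher than TGF-alpha but below untreated. IFI44L read 7.67, 7.59 and 7.70 with heregulin, 5.88, 5.73 and 5.67 with TGF-alpha and 6.64, 6.64 and 6.92 untreated, 3.71-fold higher and above untreated. IRF1, a transcription factor of this response, was 2.74-fold higher, and IFITM3, which restricts virus entry and has near copies, 2.38-fold. IFI27 and ISG20 gave 0.11 ± 0.14 and 0.06 ± 0.09, neither called.

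Of 15 measured genes of the IL-6 family and STAT3 targets, 7 were called higher and 1 lower. STAT3 itself read 11.32, 11.17 and 11.06 with heregulin, 10.22, 10.38 and 10.23 with TGF-alpha and 10.77, 10.80 and 10.84 untreated, 1.88-fold higher (adjusted p = 1.3e-06). IL6 read 4.90, 4.86 and 4.99 with heregulin and 3.99, 4.05 and 3.97 with TGF-alpha, 1.88-fold higher, both below the untreated 5.55, 5.84 and 5.33. LIFR, a receptor for leukemia inhibitory factor, was the member called lower, by 1.82-fold (adjusted p = 1.0e-05). IL6R and IL11 gave 0.03 ± 0.12 and 0.10 ± 0.12.

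STEAP4 leads a group of 12 measured genes of metal reduction and iron handling, of which 8 were called higher and 0 lower. Of these genes 1 was called lower when the arrays were centred on their medians or quantile normalized once more, and without TGF-alpha replicate 1, where 7 were called higher. CYBRD1, a ferric reductase, read 10.70, 10.68 and 10.74 with heregulin, 9.09, 9.16 and 8.91 with TGF-alpha and 10.90, 10.97 and 11 untreated, 3.14-fold higher (adjusted p = 1.4e-09). The iron transporter SLC11A2 was 2.31-fold higher and ACO1, an iron-sensing aconitase, 2.0-fold higher. STEAP3 was 1.23-fold higher (adjusted p = 0.02), and this call was lost without TGF-alpha replicate 1 (0.062), TGF-alpha replicate 3 (0.085) or heregulin replicate 2 (0.068), and with arrays centred on their medians (0.061). HMOX1, heme oxygenase, gave 0.25 ± 0.10 (adjusted p = 0.099). SLC39A8, a zinc and manganese importer outside this list, read 12.01, 11.95 and 11.85 with heregulin, 8.99, 9.20 and 8.98 with TGF-alpha and 10.30, 10.27 and 10.29 untreated, 7.37-fold higher (adjusted p = 3.0e-12). Other genes among the 15 furthest above were HSD17B2, which oxidises estradiol, at 8.75-fold and PDZK1IP1, a small membrane protein, at 8.11-fold.

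Promoters of 3 genes of the inflammatory lists are shown because each held a kappaB match, the sequence bound by NF-kB. All 3 genes were called higher with heregulin. Each line gives the 150 bases before the start site, 5′ to 3′ on the gene's strand, from RefSeq promoters of GRCh38.p14, with the match in capitals. The motif was searched on both strands as 3 G, any 2 bases, 3 T and 2 C in a row. The windows lie at chr4:73869243-73869392 (plus strand) for CXCL1, chr6:137867109-137867258 (plus strand) for TNFAIP3 and chr6:32853705-32853854 (minus strand) for TAP1.
CXCL1: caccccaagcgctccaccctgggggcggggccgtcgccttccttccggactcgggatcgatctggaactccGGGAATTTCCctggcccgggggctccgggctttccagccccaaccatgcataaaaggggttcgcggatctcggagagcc
TNFAIP3: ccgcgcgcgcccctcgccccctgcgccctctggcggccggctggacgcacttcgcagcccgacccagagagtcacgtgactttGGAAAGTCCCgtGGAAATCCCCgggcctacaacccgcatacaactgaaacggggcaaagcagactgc
TAP1: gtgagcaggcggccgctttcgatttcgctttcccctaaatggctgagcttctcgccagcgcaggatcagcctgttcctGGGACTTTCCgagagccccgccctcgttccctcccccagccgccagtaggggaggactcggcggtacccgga
TNFAIP3 has 2 matches 12 bases apart at their first bases, and CXCL1 and TAP1 have 1 each in these windows. A kappaB match lay in 2.01% of the 14237 promoters of measured genes (250 bases before to 50 after the start). It lay in 9 of 175 promoters (5.14%) of genes at least 2-fold higher with heregulin and in 7 of 265 (2.64%) of those at least 2-fold lower. In the NF-kB list 7 of 19 promoters held one, among chemokines 6 of 13 and among antigen presentation genes 3 of 11. CFB and NFKB2 had no match in their windows. CXCL5 and LTB, which were not called, each held a match, as did PHLDA1 and CLSPN, which were lower with heregulin. A match is a description of letters and not a shown binding site.

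DNA replication genes were lower with heregulin throughout, 32 of 32 called, with differences from -2.31 to -0.70 and a median of -1.38. TYMS, thymidylate synthase, read 7.07, 6.76 and 7.33 with heregulin, 9.27, 9.47 and 9.35 with TGF-alpha and 6.77, 7.08 and 7.04 untreated, 4.96-fold lower (adjusted p = 4.7e-08). MCM5, a subunit of the replicative helicase, read 6.35, 6.15 and 6.47 with heregulin, 8.17, 8.58 and 8.36 with TGF-alpha and 6.71, 6.54 and 6.57 untreated, 4.15-fold lower (adjusted p = 2.8e-09). RFC4, of the clamp loader, read 5.77, 5.77 and 5.78 with heregulin, 7.72, 7.76 and 7.76 with TGF-alpha and 5.93, 5.80 and 5.61 untreated, 3.92-fold lower. In these 3 genes the TGF-alpha arrays stood alone above both other groups. RRM2, the ribonucleotide reductase subunit, was 3.89-fold lower. CLSPN, which links replication forks to checkpoint signalling and is not in this list, was 4.97-fold lower. Its other probe set gave -1.43 against -2.31, and the one used here had heregulin replicate 2 at 3.78 against 4.85 and 4.97 for the others. The smallest differences of the list were in GINS3, at 1.62-fold lower, and the chromatin factor UHRF1, at 1.64-fold lower, whose second, dimmer probe set gave -0.03.

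Mitosis genes were also lower throughout, 29 of 29 called, from -1.63 to -0.51 with a median of -1.17. Their mean level over the list was 7.21 to 7.55 on the heregulin arrays, 8.47 to 8.58 on the TGF-alpha arrays and 7.03 to 7.13 on the untreated arrays. TTK, the spindle checkpoint kinase MPS1, read 6.15, 5.73 and 6.42 with heregulin and 7.67, 7.75 and 7.78 with TGF-alpha, 3.10-fold lower (adjusted p = 2.5e-07). NDC80 and NUF2, which attach kinetochores to microtubules, were 2.96-fold and 2.71-fold lower, and AURKA, the spindle pole kinase, 2.81-fold lower. NUSAP1 was 1.60-fold and CDC20, the activator of the anaphase-promoting complex, 1.42-fold lower, the smallest differences of the list. CDC20 read 8.50, 8.58 and 8.36 with heregulin, 8.77, 9.13 and 9.06 with TGF-alpha and 7.92, 7.95 and 7.82 untreated, so both ligands lay above untreated. In bulk RNA, fewer cells in cycle and less RNA of these genes per cell cannot be told apart.

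Cyclins and inhibitors of the G1 phase were more mixed, with 8 of 20 called lower and 1 higher. CCND1, cyclin D1, read 6.99, 7.27 and 7.20 with heregulin, 8.44, 8.21 and 8.40 with TGF-alpha and 7.59, 7.87 and 7.62 untreated, 2.29-fold lower (adjusted p = 1.6e-06). CCNA1, cyclin A1, was 4.25-fold lower and RBL1, the RB relative p107, 3.15-fold lower. CCNE2 was 1.95-fold lower, while CCNE1 gave -0.00058 ± 0.12 (95% interval -0.26 to 0.26) and the inhibitor gene CDKN1C -0.11 ± 0.11.

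For the cell cycle genes, 2 promoters are shown because they hold the E2F and CHR motifs through which such genes are known to be repressed outside of division. Each is the 150 bases before the start site of the GRCh38.p14 RefSeq promoter, with the match in capitals, at chr18:657503-657652 (plus strand) for TYMS (E2F) and chr1:43358831-43358980 (plus strand) for CDC20 (CHR).
TYMS: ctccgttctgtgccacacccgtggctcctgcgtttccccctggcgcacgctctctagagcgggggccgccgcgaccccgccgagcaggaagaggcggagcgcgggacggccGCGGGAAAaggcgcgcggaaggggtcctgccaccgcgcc
CDC20: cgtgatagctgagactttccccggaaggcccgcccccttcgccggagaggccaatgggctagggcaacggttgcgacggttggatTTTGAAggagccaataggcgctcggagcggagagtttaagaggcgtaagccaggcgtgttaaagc
The E2F letters searched, TTTNNCGC on both strands, lay in 8.96% of all promoters, in 22.6% (60 of 265) of genes at least 2-fold lower with heregulin and in 6.29% (11 of 175) of those at least 2-fold higher. The CHR letters, TTTGAA, lay in 11.9%, 30.2% and 14.9% of the same sets. ETS letters, CCGGAAGT, were searched too and lay in 6.37% of all promoters, 5.28% of the lower set and 1.14% of the higher set. They were thus no more common in the lower set than over all promoters, although ETV1, ETV4 and ETV5 were lower. Letters for CEBP factors, TTGCNNAA, lay in 8.35% of all promoters, 9.06% of the lower set and 12% of the higher set. In the replication list 20 of 29 promoters held the E2F letters, and in the mitosis list 17 of 24 held the CHR letters.

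**Figure D4:**
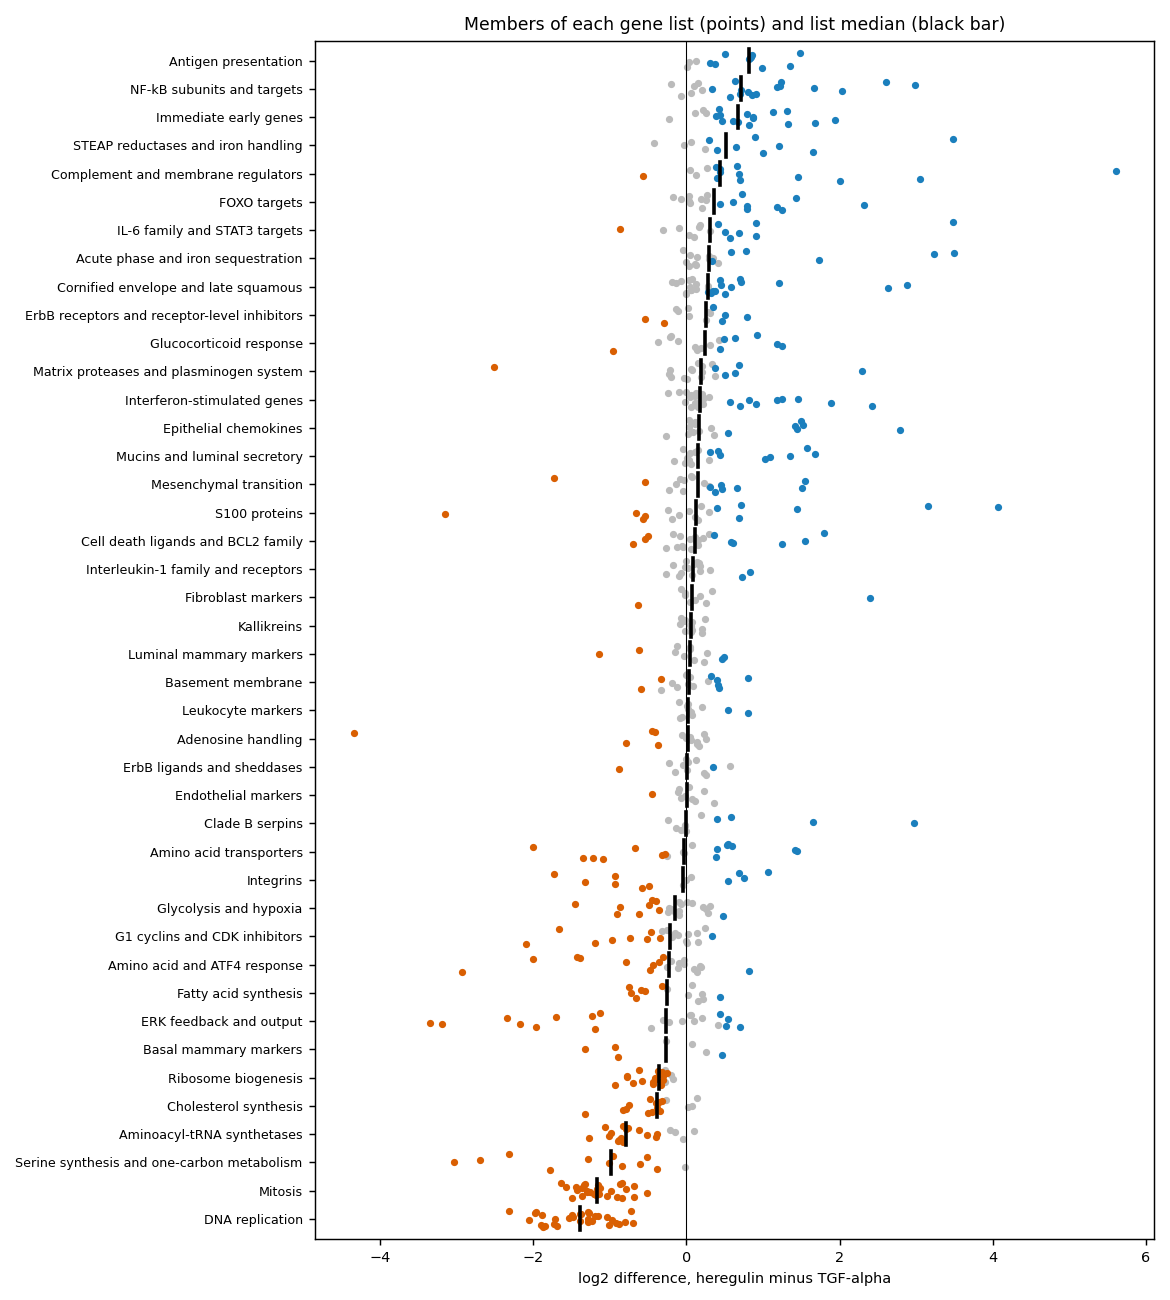
Each row is 1 gene list and each point 1 measured member, placed by its log2 difference, heregulin minus TGF-alpha; blue is called higher in heregulin, orange called lower and grey not called, and the black bar is the list median. DNA replication and mitosis lie wholly to the left, with medians of -1.38 and -1.17, and antigen presentation and NF-kB lists have medians of 0.81 and 0.71.

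Serine synthesis feeds one-carbon metabolism and nucleotide synthesis, and 11 of 12 measured genes of these routes were called lower with heregulin. PSAT1, the transaminase after PHGDH, read 6.82, 6.45 and 6.50 with heregulin, 9.20, 9.40 and 9.27 with TGF-alpha and 6.28, 6.64 and 6.62 untreated, 6.48-fold lower (adjusted p = 2.6e-10). ALDH1L2, a mitochondrial folate enzyme, was 3.44-fold lower, and read 6.51, 6.20 and 6.28 untreated, below both ligands. SHMT1 was 1.43-fold lower, and GCAT, which acts on threonine breakdown, gave -0.01 ± 0.16 (adjusted p = 0.97).

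ASNS, asparagine synthetase, a target of the amino acid response factor ATF4, read 6.88, 6.66 and 6.60 with heregulin, 9.65, 9.69 and 9.59 with TGF-alpha and 6.93, 6.60 and 6.75 untreated. It was 7.62-fold lower (adjusted p = 8.4e-12), with heregulin and untreated arrays overlapping. In the ATF4 list 9 of 20 genes were called lower and 1 higher. TRIB3, a pseudokinase, was 2.68-fold, and STC2, stanniocalcin 2, 2.60-fold lower. The stress factor gene NUPR1 gave -0.09 ± 0.09 and XBP1 -0.13 ± 0.09, neither called.

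Aminoacyl-tRNA synthetases load amino acids on tRNA, and 15 of 19 were called lower with heregulin, 0 higher, with a median of -0.78. GARS1, for glycine, read 10.11, 9.87 and 9.97 with heregulin, 11.17, 11.27 and 11.31 with TGF-alpha and 9.94, 9.89 and 9.78 untreated, 2.41-fold lower (adjusted p = 4.6e-08). WARS1, IARS1 and MARS1, for tryptophan, isoleucine and methionine, were 2.09-fold, 2.01-fold and 1.97-fold lower. QARS1, for glutamine, gave 0.11 ± 0.08 (95% interval -0.07 to 0.28) and FARSA, for phenylalanine, -0.04 ± 0.09 (95% interval -0.24 to 0.16).

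The promoters of ASNS and IARS1 are shown because each held the ATF4 letters searched, TGATGNAA on either strand. They are the 150 bases before the start site in GRCh38.p14, at chr7:97872409-97872558 (minus strand) and chr9:92293698-92293847 (minus strand), with the match in capitals.
ASNS: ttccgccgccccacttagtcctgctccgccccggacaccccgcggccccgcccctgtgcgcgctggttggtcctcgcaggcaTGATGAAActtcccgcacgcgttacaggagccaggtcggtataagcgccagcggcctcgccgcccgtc
IARS1: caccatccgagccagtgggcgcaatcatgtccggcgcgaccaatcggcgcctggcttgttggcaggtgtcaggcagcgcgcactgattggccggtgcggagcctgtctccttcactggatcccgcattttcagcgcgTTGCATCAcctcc
These letters lay in 2.54% of all promoters, in 9 of 265 (3.40%) of genes at least 2-fold lower with heregulin and in 4 of 175 (2.29%) of those at least 2-fold higher. In the synthetase list 6 of 16 promoters held them, and in the serine list 1 of 9, that of MTHFD1L.

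Amino acid transporters split evenly, 7 of 18 higher and 7 lower. SLC7A11, the cystine importer, read 5.25, 4.80 and 5.13 with heregulin and 7.08, 7.04 and 7.08 with TGF-alpha, 4.01-fold lower (adjusted p = 9.7e-09), and SLC1A4, which carries serine and alanine, was 2.55-fold lower. SLC43A2, a carrier of large neutral amino acids, was 2.71-fold higher, at 8.55, 8.38 and 8.24 against 6.89, 7.02 and 6.93. SLC6A14, a broad amino acid importer, was 2.68-fold higher. SLC7A5 and SLC3A2, the pair that forms the LAT1 transporter, gave 0.08 ± 0.08 and -0.03 ± 0.09, neither called.

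Ribosome biogenesis genes were called lower in 18 of 22 and higher in 0, with a median of -0.36. The count fell to 9 without TGF-alpha replicate 2, 10 without TGF-alpha replicate 3 and 11 without heregulin replicate 2. The list also holds CAD, the first enzyme of pyrimidine synthesis, at 1.90-fold lower, and ODC1, the first enzyme of polyamine synthesis, at 1.71-fold lower. NPM3, a nucleolar chaperone, was 1.71-fold and FBL, fibrillarin, 1.61-fold lower. FBL read 9.51, 9.39 and 9.36 with heregulin, 10.06, 10.11 and 10.15 with TGF-alpha and 9.18, 9.28 and 9.01 untreated, so both ligands lay above untreated. NOP58 and POLR1A gave -0.17 ± 0.10 and -0.20 ± 0.10, neither called.

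Cholesterol synthesis genes were called lower in 13 of 17 and higher in 0. ACAT2 was 2.51-fold lower, FDPS 1.77-fold, HMGCS1 1.72-fold and MSMO1 1.69-fold, all enzymes of the route. HMGCS1 read 9.07, 8.85 and 9.20 with heregulin, 9.81, 9.91 and 9.74 with TGF-alpha and 8.64, 8.53 and 8.77 untreated. LSS and the sterol sensor partner INSIG1 gave 0.07 ± 0.09 and 0.02 ± 0.11. In fatty acid synthesis 6 of 13 were called lower and 1 higher, with ME1, ELOVL6, ACLY and FADS2 1.68-fold, 1.64-fold, 1.57-fold and 1.5-fold lower. The regulator SREBF1 gave 0.08 ± 0.10 and the elongase ELOVL1 0.03 ± 0.10. LPL, lipoprotein lipase, read 5.48, 5.46 and 5.70 with heregulin and 7.86, 8.04 and 7.94 with TGF-alpha, 5.27-fold lower (adjusted p = 4.3e-11).

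In the glycolysis and hypoxia list 8 of 23 were called lower and 1 higher. PFKP, a phosphofructokinase, read 7.70, 7.60 and 7.78 with heregulin, 9.15, 9.13 and 9.14 with TGF-alpha and 7.59, 7.77 and 7.58 untreated, 2.73-fold lower (adjusted p = 5.2e-09). ALDOC, PDK1 and BNIP3 were 1.88-fold, 1.83-fold and 1.54-fold lower. The enzymes PGK1 and PKM gave -0.07 ± 0.08 (95% interval -0.24 to 0.11) and 0.07 ± 0.07 (95% interval -0.08 to 0.23).

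NT5E stood out among adenosine genes, of which 5 of 14 were called lower and 0 higher. The adenosine receptor gene ADORA2B was 1.72-fold lower and the nucleoside transporters SLC29A2 and SLC29A1 1.37-fold and 1.33-fold lower. ADORA1 and ENTPD2, which breaks down ATP outside cells, gave 0.13 ± 0.15 and -0.06 ± 0.08. Other genes far below with heregulin were SLC20A1, a phosphate importer, at 5.0-fold, EMP3, a small membrane protein, at 4.87-fold, and EVI2B at 6.36-fold. SERPINE2, protease nexin 1, was 5.71-fold lower, with untreated arrays between the ligands at 6.70, 6.21 and 6.51.

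Genes of late squamous differentiation, when keratinocytes build the cornified envelope, were called higher in 13 of 27 and lower in 0. The count was 9 without TGF-alpha replicate 1 or 3, and with arrays centred on their medians. PI3, the elastase inhibitor elafin, read 9.77, 9.59 and 9.16 with heregulin, 6.43, 6.81 and 6.65 with TGF-alpha and 7.07, 7.05 and 6.87 untreated, 7.34-fold higher (adjusted p = 6.7e-10). KRT10, the keratin of suprabasal cells, read 12.64, 12.39 and 12.47 with heregulin, 9.95, 9.80 and 9.87 with TGF-alpha and 10.07, 9.89 and 9.98 untreated, 6.19-fold higher (adjusted p = 8.3e-11). For both, heregulin arrays lay alone above the others. SPRR2A, whose family has near copies, was 1.64-fold higher, and SLPI, a secreted antiprotease, 2.32-fold. CDSN and KRT4 gave 0.0016 ± 0.11 and 0.05 ± 0.10.

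SERPINB3 and SERPINB4, neighbouring and nearly identical squamous serpins, were 7.83-fold and 3.16-fold higher, which cannot be assigned to one of them with certainty. SERPINB3 read 6.75, 6.09 and 6.33 with heregulin, 3.47, 3.85 and 2.95 with TGF-alpha and 3.79, 3.29 and 3.11 untreated. In the clade 4 of 11 were called higher and 0 lower. Only 3 of the 11 had a mean level above the median of all probe sets, 5.37, below which a difference may not show. SERPINB5 was called lower when arrays were centred on their medians (adjusted p = 0.044), with dim genes left out (0.035) and with a trended prior (0.036). With dim genes left out, 1 member was called higher and 1 lower. SERPINB8 was 1.5-fold higher. SERPINB7 was 1.32-fold higher, and lost its call without TGF-alpha replicate 1 (adjusted p = 0.070) or heregulin replicate 3 (0.059). SERPINB5 and SERPINB1 gave -0.24 ± 0.09 (adjusted p = 0.062) and -0.01 ± 0.10. Of 14 kallikreins, proteases that shed squamous cells, limma called 0, and 0 had an unadjusted p under 0.05, while 2 were called with array weights. Only 7 of the 14 had a mean level above that median. KLK7 gave -0.01 ± 0.17 and KLK6 -0.03 ± 0.19. KLK7 read 6.60, 6.70 and 7.44 with heregulin, 6.85, 7.04 and 6.90 with TGF-alpha and 8.40, 8.46 and 8.67 untreated, so both ligands lay below untreated.

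Mucins and secretory genes of luminal epithelium were called higher in 8 of 19 and lower in 0. Only 5 of the 19 had a mean level above the median of all probe sets, below which a difference may not show. MUC21 read 9.12, 9.08 and 9.42 with heregulin, 7.61, 7.55 and 7.43 with TGF-alpha and 6.28, 6.75 and 6.56 untreated, 3.20-fold higher (adjusted p = 4.7e-06), with both ligands above untreated. WFDC2, a secreted antiprotease-like protein, was 2.97-fold, MUC16 2.56-fold, MUC15 2.13-fold and MUC1 2.03-fold higher. MUC20 was 1.36-fold higher, and lost its call without TGF-alpha replicate 2 (adjusted p = 0.051). KRT7 gave -0.15 ± 0.08.

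Integrin subunits were split. ITGA6 and ITGB4, which pair in hemidesmosomes, were 2.50-fold and 1.91-fold lower with heregulin, and ITGB5, a vitronectin receptor subunit, 3.31-fold lower. ITGA6 read 9.53, 9.24 and 9.46 with heregulin, 10.73, 10.75 and 10.73 with TGF-alpha and 9.51, 9.36 and 9.46 untreated. ITGB8, which activates TGF-beta, was 2.10-fold higher, at 11.11, 10.98 and 10.98 against 10.04, 10.0 and 9.83. Of 13 measured, 4 were higher and 6 lower, and ITGB1, the common partner, gave -0.01 ± 0.09 (95% interval -0.21 to 0.19). Among 16 basement membrane genes, 5 were higher, with LAMB2 at 1.74-fold, and 2 lower, with COL4A2 at 1.51-fold. LAMB3 and COL7A1 gave 0.05 ± 0.11 and 0.08 ± 0.11.

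Genes tied to a mesenchymal state were mixed, 7 of 18 higher and 2 lower. VIM, vimentin, read 6.28, 6.08 and 6.06 with heregulin, 7.63, 7.87 and 8.09 with TGF-alpha and 6.49, 6.35 and 6.38 untreated, 3.30-fold lower (adjusted p = 4.0e-08). FN1, fibronectin, and TNC, tenascin C, were 2.86-fold and 2.93-fold higher, with untreated arrays near the heregulin ones. LOX, which crosslinks collagen, was 1.58-fold higher (adjusted p = 0.031), and its adjusted p ran from 0.055 to 0.11 without either of TGF-alpha replicates 1 and 3 or any heregulin array, and was 0.064 with a trended prior. TWIST1 and TWIST2 gave -0.03 ± 0.10 and -0.08 ± 0.13. MMP7, matrilysin, read 8.49, 8.10 and 8.77 with heregulin, 6.21, 6.10 and 6.16 with TGF-alpha and 8.33, 8.07 and 8.26 untreated, 4.92-fold higher (adjusted p = 3.2e-09). In its list of 19 proteases and inhibitors 5 were higher and 1 lower, with TIMP2 1.61-fold and MMP28 1.55-fold higher. PLAU, urokinase, read 6.10, 6.41 and 6.40 with heregulin, 6.24, 6.16 and 6.31 with TGF-alpha and 8.09, 7.91 and 7.93 untreated, far below untreated with either ligand and 0.06 ± 0.19 apart.

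FOXO factors are held out of the nucleus by PI3 kinase and AKT, and 9 of 18 of their known targets were called higher with heregulin and 0 lower. FBXO32, the ubiquitin ligase atrogin 1, read 10.87, 10.66 and 10.67 with heregulin, 8.49, 8.49 and 8.27 with TGF-alpha and 10.86, 10.73 and 10.76 untreated, 5.0-fold higher (adjusted p = 6.0e-10). PDK4, which restrains pyruvate oxidation, was 2.69-fold and CITED2 2.26-fold higher. For FBXO32 and PDK4 the heregulin arrays overlapped the untreated ones and the TGF-alpha arrays lay below both. FOXO3 itself and GADD45A gave 0.05 ± 0.14 and 0.03 ± 0.14.

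Cell death genes were mixed, 6 of 23 higher and 3 lower, against 9.88% higher and 11.8% lower over all genes. TNFSF10, the death ligand TRAIL, read 6.45, 6.21 and 6.40 with heregulin, 4.71, 4.38 and 4.58 with TGF-alpha and 8.72, 8.37 and 8.57 untreated, 3.48-fold higher than TGF-alpha and below untreated. BMF and BCL2L11 (BIM), which promote apoptosis, were 2.93-fold and 2.39-fold higher, and BCL2L1 (BCL-XL), which opposes it, 1.62-fold lower. BBC3 and BAD gave -0.05 ± 0.12 and 0.06 ± 0.13. Hydrocortisone was present in all groups, and 6 of 16 glucocorticoid response genes were called higher and 1 lower. HSD11B2, which inactivates cortisol, was 2.37-fold and the metallothionein MT1X, one of several near copies, 2.28-fold higher, while ANGPTL4 was 1.94-fold lower. ZBTB16 was 1.89-fold higher (adjusted p = 0.017), and lost its call without TGF-alpha replicate 2 (0.064) or heregulin replicate 2 (0.050), and with a trended prior (0.055). NR3C1, the receptor gene, gave -0.11 ± 0.10.

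The labelled breast epithelial identity was checked on markers. Basal genes were well measured, with a mean over 7 members of 9.76 to 9.85 on the heregulin arrays, 10.17 to 10.22 on the TGF-alpha arrays and 9.49 to 9.53 untreated. Of these 7 basal genes, 1 was called higher and 3 lower with heregulin, with a median of -0.27. Those called lower were CAV1, by 1.86-fold, and the integrin genes ITGA6 and ITGB4 given above. The placental cadherin CDH3 was 1.38-fold higher, and KRT14 gave 0.08 ± 0.08. Among 12 luminal markers, KRT18 and KRT8 were 2.19-fold and 1.53-fold lower, GATA3 1.40-fold higher and FOXA1 1.39-fold higher. FOXA1 lost its call without TGF-alpha replicate 3 (adjusted p = 0.11), heregulin replicate 2 (0.083) or heregulin replicate 3 (0.053).

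Markers of other cell types were also measured. Leukocyte markers had a mean level of 4.79 to 4.91 on the heregulin arrays and 4.66 to 4.81 on the TGF-alpha arrays, with 2 of 11 called higher, CD68 by 1.75-fold and CSF1R by 1.46-fold. Endothelial markers lay at 4.99 to 5.19 and 5.02 to 5.13, with 1 of 10 called, PECAM1, 1.36-fold lower on its brighter probe set and -0.04 on the other. Fibroblast markers lay at 5.82 to 5.95 with heregulin and 5.60 to 5.65 with TGF-alpha, with 1 higher and 1 lower of 10, and 3 higher without heregulin replicate 1. In the main fit, the share called in either direction in each of these marker lists was no larger than the 21.6% over all genes. DCN, decorin, read 8.96, 8.46 and 8.79 with heregulin, 6.33, 6.44 and 6.26 with TGF-alpha and 7.07, 7.22 and 7.14 untreated, 5.25-fold higher (adjusted p = 2.3e-09), while ACTA2 was 1.54-fold lower and COL1A1 gave 0.25 ± 0.10. Array values have no zero, so the absence of a marker was not tested, and the part of other cells in the inflammatory genes was not tested.

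Set beside the same untreated arrays, which both ligands share, the list medians show where each ligand lay. For DNA replication the median of heregulin minus untreated was -0.05 and that of TGF-alpha minus untreated 1.32. For mitosis these were 0.31 and 1.51, for serine and one-carbon genes 0.08 and 0.96 and for tRNA synthetases 0.07 and 0.80. For the NF-kB list they were 0.18 and -0.46, for complement 0.16 and -0.35, for antigen presentation 0.14 and -0.32 and for immediate early genes -0.61 and -1.43. These are descriptions with no test, since both rest on 1 set of untreated arrays whose harvest time the sources used here do not state.

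**Figure D5:**
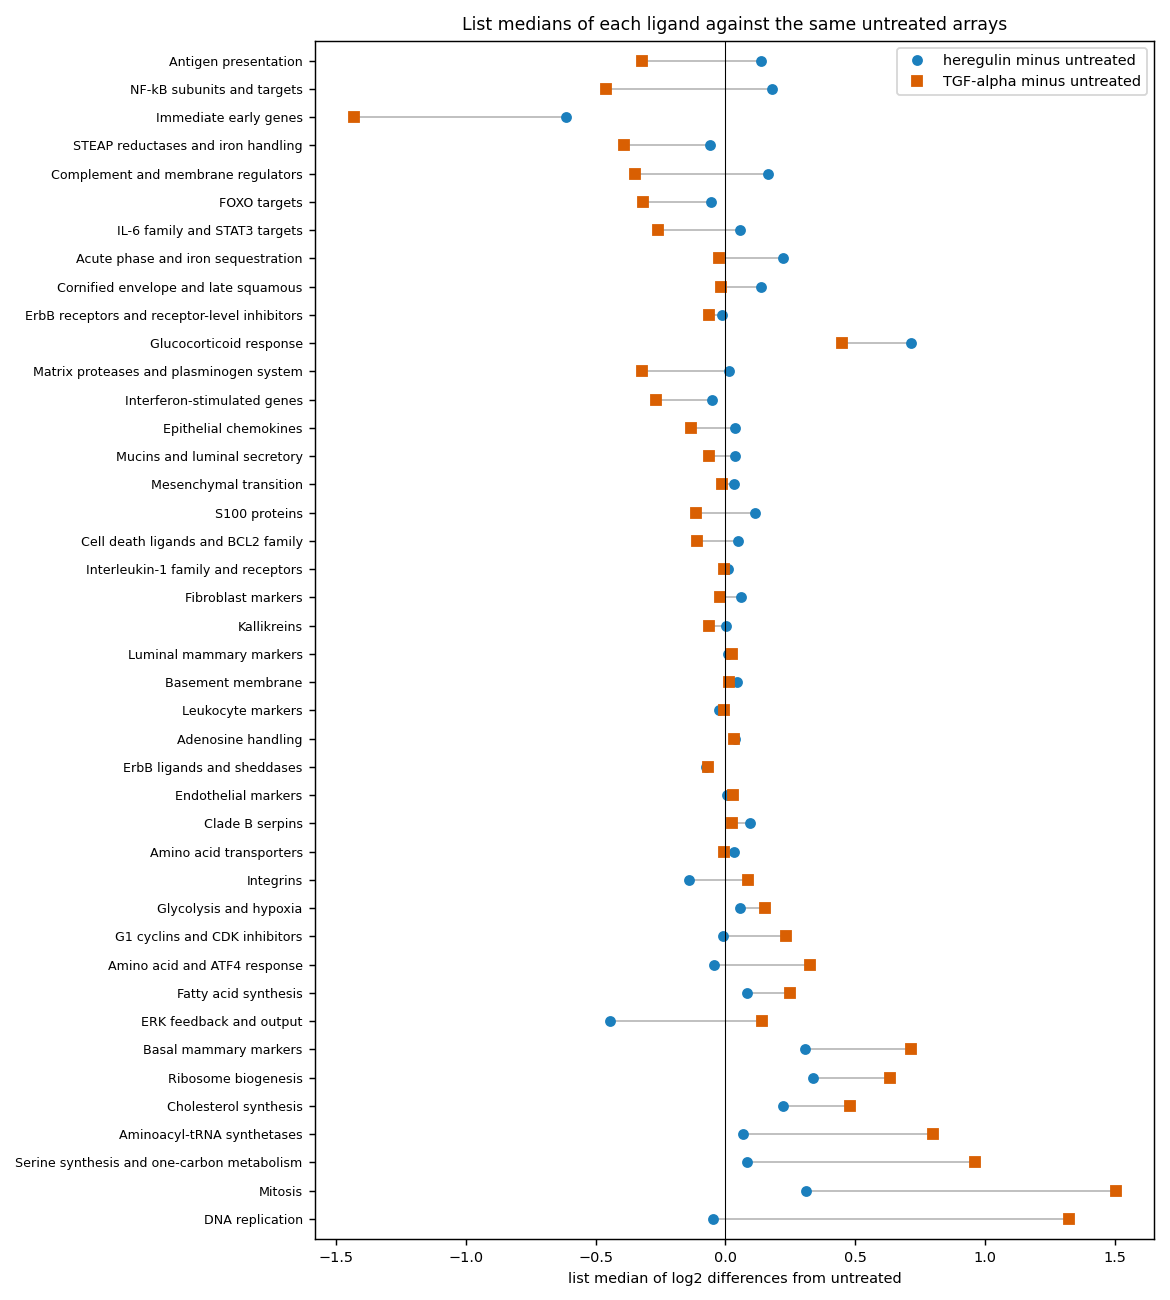
Each row is 1 gene list; the blue circle is the median over its members of heregulin minus untreated and the orange square that of TGF-alpha minus untreated, in log2 units, and a line joins them. DNA replication shows the circle at -0.05 and the square at 1.32, and the NF-kB list shows them at 0.18 and -0.46, on opposite sides of the line at 0.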

How the data were processed

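Total RNA of 12 cultures was biotin-labelled for Affymetrix arrays, per the labels' protocols. The authors deposited log2 intensities from RMA, named without a version in the submitters' processing notes. RMA equalises the distributions of the arrays, so a shift shared by most genes would not show. No depth applies, and the number of arrays limits the precision. Of 33297 probe sets, 19460 named 1 gene, 1754 several and 12083 none in the table used here. Symbols were matched by Entrez ID (19429 probe sets) to RefSeq, and the brightest probe set over 12 arrays stood for a gene (769 genes had several), which left 18417. Groups came from the treatment label. limma 3.58.1 (R 4.3.3) fitted all 12 arrays with a mean per group (8 residual and 7.55 prior degrees of freedom, median SD 0.128), and the contrast was tested as the report states. The fit was tested on simulated data. Promoters, 250 bases before to 50 after the start, were held for 14237 of the genes.

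The genes compared and the lists were chosen with earlier results of these data known, so their counts are descriptions. Named genes are the 15 furthest apart in each direction with no overlap between the ligands, the 6 marker genes, every member of the 2 ErbB lists and, from each other list, up to 4 called members with the largest and 2 well measured members with the smallest difference. The 42 lists held 702 measured genes, of which 377 were called. Alternatives changed the arrays in the fit, the normalization, the filter, the probe set rule, the variance prior, array weights, the threshold and the features tested.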

Additional observations from a re-analysis of the deposited data

How the results depend on the processing

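The count of 3986 called genes kept within 1.5 times in all alternatives but the test against a 1.5-fold difference, which called 543. Leaving out each array in turn gave 3145 to 3807 genes, and 518 to 573 genes at least 2-fold apart against 539. The 6 arrays alone gave 3523, the brighter 11099 genes 4001, a second quantile normalization 4028, the mean of probe sets 3996, a trended prior 4171, an adjusted p of 0.01 2703, array weights 5881 and all probe sets 4768. With arrays centred on their medians 3867 were called, 36.7% of them higher in heregulin against 45.7%, and the median difference was -0.02 against 0.03. Of 169 named genes that were called, 162 were called in all 13 settings tried per gene where they were measured, 7 were lost in some and 0 changed direction. Of 83 not called, 14 were called in some, most with array weights. Those weights were 0.584, 0.322 and 4.62 for heregulin replicates 1, 2 and 3. On the heregulin side, calls with array weights therefore rest mostly on replicate 3. No paired analysis was possible because the labels give no replicate numbers that tie dishes across groups. The ligands were compared at 1 time, and the sources used here do not state the doses. The median standard error was about 0.1, and a difference must be well above it to be resolved with 3 arrays per ligand. EGFR at 0.25 ± 0.09 and LRIG3 at 0.28 ± 0.10, for example, were not called.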

Other observations

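Replication-dependent histone genes, which supply chromatin in S phase, were grouped after their values were seen and are described without a test. Over 56 measured genes of the H1, H2A, H2B, H3 and H4 clusters, the median difference between heregulin and TGF-alpha was -0.88, with a range from -2.10 to 0.36. Many are near-identical copies, so probe sets may share signal, and most such RNA lacks a poly(A) tail.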
